A study of Homo sapiens with 3 samples.

Results

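Chromosomes 8, 13 and 21 of Hep3B cells were examined for the share of sequencing reads they carried after SOX4 knockout and for DNA methylation within the segments where that share was lower. Hep3B is an established human hepatocellular carcinoma line, and SOX4 is a transcription factor with an HMG box. The 3 libraries came from parental Hep3B cells (n = 1) and from a pair of SOX4 knockout lines made with CRISPR/Cas9, Hep3B SOX4 KO #1 and #2, called line 1 and line 2 here (n = 1 each). Every library was captured with the EPIC probe set for CpGs, treated with bisulfite and sequenced. The labels name no other treatment of any group, and whether each knockout line grew from a single cell was not stated. The paper states that the knockout cells were grown with puromycin and gives no such addition for parental cells. Puromycin and knockout thus cannot be told apart here. The chromosomes were chosen by their read dosage in these same libraries, so dosage is given as a description with no test. They held 279 of the 2710 autosomal bins of 1 Mb with at least 50 CpGs, and 257987 of the 3225751 CpGs in the files. Positions are in GRCh37.

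Read dosage is the share of a library's autosomal reads that falls in a region, divided by the share in the parental library. A value of 1 thus means an equal share. Shares are relative, so higher shares elsewhere lower the rest. In DNA from a culture, reads over a region follow the average number of copies per cell, and a value between the steps of whole copies arises when copies differ between cells or when the starting copy number is high. Reads alone do not tell these apart. Cancer lines such as Hep3B carry several copies of many chromosomes and drift in culture, and losses of chromosome arms are common in liver cancer. Methylation of a CpG is read as the share of its reads that keep a C after bisulfite, a quantity that does not depend on how many reads there are, although its precision does. CpGs in promoters of active genes are mostly unmethylated, while CpGs between and inside genes are mostly methylated.

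The promoters of 6 genes are shown first because they carry the promoter changes described later. Each line is a stretch of 30 bases upstream of the gene's start from RefSeq (GRCh38.p14 table), 5′ to 3′ on the gene's strand, with every CpG in capitals. The GRCh37 position of each was found by matching the spacing of its CpGs to the CpGs of the files.
CDX2, a homeobox factor of the intestine, chr13:28543507-28543536, minus strand: tgtgCGtagagtgCGCGctgCGcctCGaCG
SLITRK5, a transmembrane protein of neurons, chr13:88325302-88325331, plus strand: tgagcagctgtgccCGgagcctcCGgtgCG
DCLK1, a doublecortin-like kinase, chr13:36705522-36705551, minus strand: caagaaaagggagCGCGccCGcCGcCGcCG
SAMSN1, a signalling adaptor of blood cells, chr21:15955778-15955807, minus strand: aattttacccCGtatttatgcacCGcccCG
CBR1, a carbonyl reductase, chr21:37442186-37442215, plus strand: cCGcctgctcCGcacccCGgCGaggttcCG
RCAN1, a regulator of calcineurin, chr21:35896993-35897022, minus strand: tggcaccagagCGaggtgtgcacagacaCG
In the SAMSN1 stretch the 3 CpGs averaged 81.6% in parental cells, 2.55% in line 1 and 52.4% in line 2. In the CDX2 stretch the 6 CpGs averaged 37.9% in parental cells, 4.58% in line 1 and 21.5% in line 2. The 3 CpGs of SLITRK5 averaged 34.3%, 0% and 28.3% in the same order. The RCAN1 stretch went the other way, with its 2 CpGs at 20.8% in parental cells, 55.8% in line 1 and 38.8% in line 2. In all 4 of these stretches line 2 lay between the parental cells and line 1.

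All libraries were deep enough for bins of 1 Mb. The parental library held 102625418 autosomal reads, line 1 held 95070093 and line 2 held 130520442. Between 13.1% and 13.3% of these reads came from the forward strand. Segments with a mean dosage at or below 0.9 in line 1 were also found on chromosome 2 (110 to 154 Mb, 0.670 to 0.754), chromosome 3 (89 to 95 Mb, 0.859) and chromosome 9 (0 to 25 Mb, 0.489 to 0.558). Chromosomes 11 and 1 had the highest dosage, 1.31 and 1.13 in line 1 and 1.14 and 1.07 in line 2. The median autosomal bin had a dosage of 0.983 in line 1 and 0.988 in line 2. The knockout itself was not checked, since the edited site is not read in these files.

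Chromosome 21 had the lowest dosage of the 22 autosomes in both lines. It took 1.85% of autosomal reads in parental cells, 1.41% in line 1 and 1.64% in line 2, a dosage of 0.763 in line 1 and 0.886 in line 2. Chromosome 13 took 2.31%, 1.93% and 2.14% of the reads, a dosage of 0.834 in line 1 and 0.927 in line 2. Chromosome 8 took 4.45%, 3.79% and 3.99%, a dosage of 0.8498 in line 1 and 0.896 in line 2. Over both lines the mean dosage was 0.824 ± 0.0871 for chromosome 21, 0.881 ± 0.0658 for chromosome 13 and 0.873 ± 0.0327 for chromosome 8 (SD, n = 2). With the median autosomal bin of each line set to 1, these means were 0.836, 0.893 and 0.886. The order of the lowest chromosomes differed between the lines, since chromosome 13 was the second lowest in line 1 and chromosome 8 in line 2.

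Most bins of the 3 chromosomes were low. In line 1, 120 of 145 bins of chromosome 8, 86 of 96 of chromosome 13 and 35 of 38 of chromosome 21 were at or below 0.9. Over all autosomes the share was 13.4%, and nothing is read from the difference, as dosage chose the chromosomes. In line 2 the counts were 80, 38 and 31 bins, against 9.78% of all autosomal bins. Line 2 lay between line 1 and the parental level in 234 of the 279 bins, at or below line 1 in 31, and at or above the parental level in 14. Of the 31 bins where line 2 was at or below line 1, 26 were on chromosome 8 and none on chromosome 21.

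Relative to the change in line 1, line 2 was farthest from it on chromosome 13 and nearest on chromosome 8. The dosage lost in line 2 was 0.692 of that lost in line 1 on chromosome 8, 0.439 on chromosome 13 and 0.481 on chromosome 21. Over 12 ways of counting the reads, which included other scalings, single strands, total coverage and CpGs of one methylation class, this ratio ran from 0.660 to 0.824 on chromosome 8, from 0.405 to 0.527 on chromosome 13 and from 0.452 to 0.544 on chromosome 21. The ranges of chromosomes 13 and 21 overlapped, and that of chromosome 8 overlapped neither. The same held for segments, since the ratio was 0.688 to 0.831 in the 5 lowered segments of chromosome 8, 0.410 to 0.540 in the 4 of chromosome 13 and 0.524 to 0.618 in the 3 of chromosome 21. Elsewhere the ratio was 0.525 to 0.610 in the lowered segments of chromosomes 2 and 9 and 0.409 in that of chromosome 3. Over chromosomes 1 and 11, where dosage was above 1, it was 0.546 and 0.465. Ratios like those of chromosomes 13 and 21 were thus also found in other changed regions. With 1 library of each line these ratios have no replicate error.

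Each chromosome was then divided into segments of even dosage, from the bins of line 1 alone. Chromosome 8 fell into 5 segments, and all were lowered. From the short-arm end, dosage in line 1 was 0.873 ± 0.0253 (SD over bins, n = 6) at 0 to 6 Mb, 0.799 ± 0.0346 (n = 25) at 6 to 31 Mb, 0.883 ± 0.0451 (n = 22) at 31 to 55 Mb, 0.801 ± 0.0387 (n = 15) at 55 to 70 Mb and 0.870 ± 0.0470 (n = 77) at 70 to 147 Mb. The second and the fourth segment were thus the lowest of the chromosome. Line 2 had 0.894, 0.862, 0.913, 0.858 and 0.907 over the same segments, with the same 2 segments lowest. SDs over bins describe how even a segment is and are not a replicate error.

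**Figure D1:**
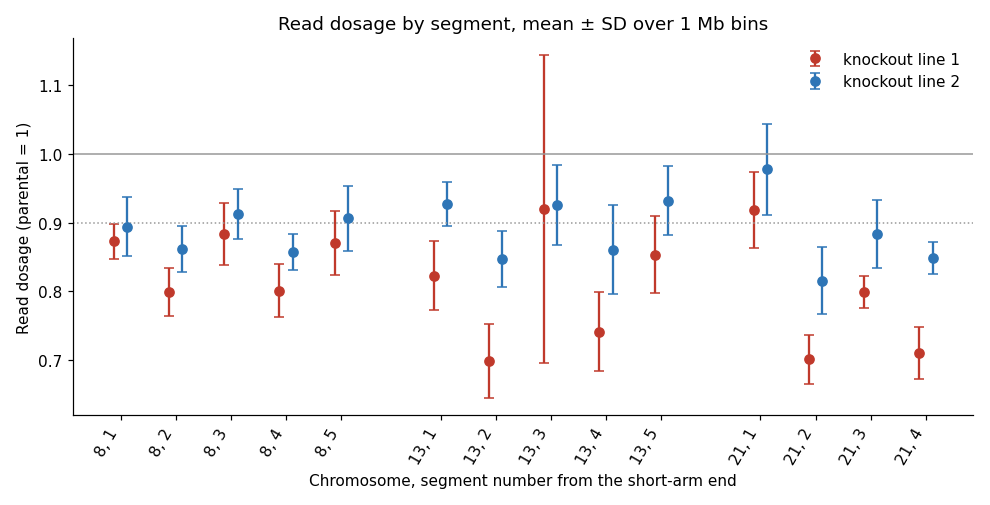
Read dosage (parental = 1) of line 1 (red) and line 2 (blue) in the 14 segments of chromosomes 8, 13 and 21, numbered from the short-arm end; points are means over 1 Mb bins and bars the SD over bins, the solid line is 1 and the dotted line 0.9. Line 1 lies below line 2 in each segment, and the third segment of chromosome 13 has the widest bar (0.920 ± 0.224, 3 bins).

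On chromosome 13 the segments of line 1 were 0.823 ± 0.0498 (n = 25) at 19 to 44 Mb, 0.699 ± 0.0536 (n = 10) at 44 to 54 Mb, 0.920 ± 0.224 (n = 3) at 54 to 57 Mb, 0.742 ± 0.0579 (n = 19) at 57 to 77 Mb and 0.853 ± 0.0566 (n = 39) at 77 to 116 Mb. Line 2 had 0.927, 0.847, 0.926, 0.861 and 0.932. The middle of the long arm, from 44 to 77 Mb, was therefore the lowest part in both lines. The segment at 54 to 57 Mb broke this run, but it held only 255 CpGs and its 3 bins differed widely.

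On chromosome 21 the segments of line 1 were 0.919 ± 0.0553 (n = 5) at 9 to 16 Mb, 0.701 ± 0.0358 (n = 3) at 16 to 19 Mb, 0.799 ± 0.0236 (n = 8) at 19 to 27 Mb and 0.711 ± 0.0375 (n = 22) at 27 to 49 Mb. Line 2 had 0.977, 0.815, 0.883 and 0.848. The first segment was not lowered. In it 679 of 3361 CpGs carried over 200 parental reads, and these held 66.1% of its parental reads, against 4.14% in the last segment. Without such CpGs its dosage was 0.911 in line 1 and 0.978 in line 2. Beside the threshold of 0.9, the highest lowered segment was that at 31 to 55 Mb of chromosome 8 (0.883), and the lowest that was not lowered was this one (0.919). In all, 12 segments with 271 bins and 274 Mb counted as lowered.

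Line 2, divided on its own, had fewer edges. Chromosome 8 had 1 edge, at 85 Mb (0.881 before it and 0.911 after it). Chromosome 13 had 2, at 44 Mb and 83 Mb, with 0.927, 0.865 and 0.942 in turn. Chromosome 21 had 1, at 16 Mb, with 0.977 before it and 0.854 after it. Of the 11 edges of line 1, those at 44 Mb of chromosome 13 and at 16 Mb of chromosome 21 had an edge of line 2 within 2 Mb. A smaller change in line 2 leaves smaller steps to find at the same noise between bins (0.0666 in line 1 and 0.0577 in line 2 on the log2 scale), so the missing edges do not show that line 2 was even there.

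The edge whose position matched best between the lines was that at 44 Mb of chromosome 13. In bins of 100 kb within 2 Mb of it, the best division was at 44000000 in line 1 and at 44000000 in line 2. Dosage before and after it was 0.816 and 0.677 in line 1, and 0.938 and 0.799 in line 2. The nearest genes placed were DNAJC15, a mitochondrial co-chaperone, with its start at 43.6 Mb, and LACC1, an enzyme of macrophages, at 44.45 Mb. On chromosome 8 the division near 31 Mb was at 30800000 in line 1 (0.783 to 0.921) and at 30900000 in line 2 (0.837 to 0.908). On chromosome 21 the division near 16 Mb was at 15500000 in line 1 and 16200000 in line 2, which put the start of SAMSN1 (15.96 Mb) between the estimates and the start of NRIP1, a nuclear receptor corepressor (16.44 Mb), beyond both. The search covered only 2 Mb on each side of an edge of line 1 and always returned a division. Both profiles are also divided by the same parental library, so like positions in the lines are not independent.

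These 3 edges were found within 2 Mb under all 8 other ways of dividing line 1. Among those ways, setting the median bin to 1 cannot move an edge, and using bins with any CpG moved none. The other 8 edges were less firm. The edges at 70 Mb of chromosome 8 and 77 Mb of chromosome 13 were found under 7 of 8, those at 6 Mb of chromosome 8 and 27 Mb of chromosome 21 under 6, those at 54 and 57 Mb of chromosome 13 under 5, and those at 55 Mb of chromosome 8 and 19 Mb of chromosome 21 under 4. In 100 kb bins the lines differed by over 1 Mb at several of them, as at 77 Mb of chromosome 13 (78400000 in line 1 and 75300000 in line 2). Mean dosage of 100 kb bins before and after these divisions was 0.815 and 1.047 in line 1, and 0.684 and 0.886 in line 2. Both divisions lie near an end of the search, so 1 side of each rests on few bins. Over whole segments, dosage in line 1 rose from 0.742 to 0.853 at 77 Mb and fell from 0.823 to 0.699 at 44 Mb. At 27 Mb of chromosome 21 the estimates were 28300000 and 26100000, around the placed starts of MRPL39 (26.98 Mb), a mitochondrial ribosomal protein, and GABPA (27.11 Mb), an ETS factor.

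**Figure D2:**
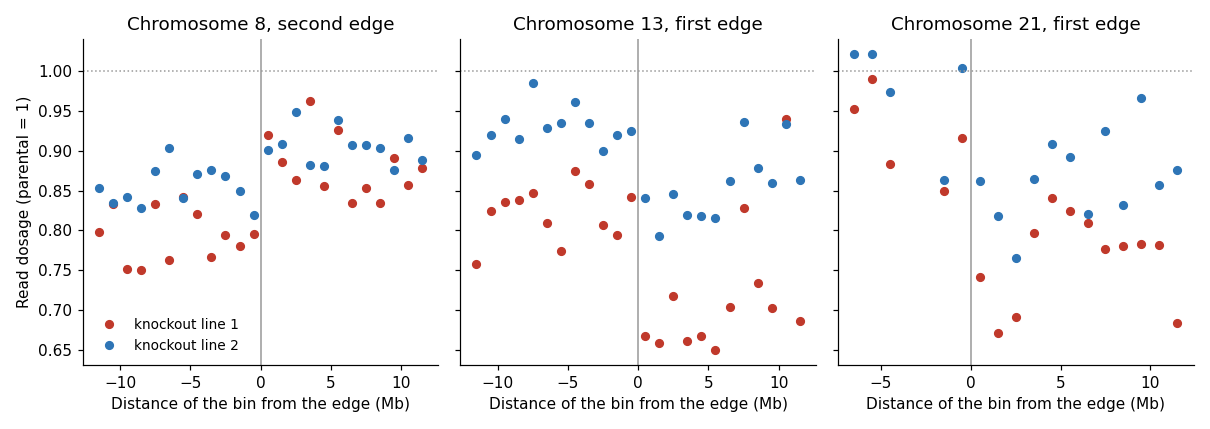
Read dosage (parental = 1) of single 1 Mb bins by distance from the 3 edges found under every way of dividing line 1; red points are line 1 and blue points line 2. At the edge of chromosome 13 the mean of 100 kb bins within 2 Mb is 0.816 before and 0.677 after it in line 1 (0.938 and 0.799 in line 2), and at the edge of chromosome 8 both lines rise.

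The parental library itself changed depth near the same places. Depth was taken as mean reads per CpG, scaled to 100000000 autosomal reads in each library, over CpGs with at most 200 parental reads. On chromosome 13 the parental depth was 28.7 at 19 to 44 Mb, 17.3 at 44 to 54 Mb, 12.4 at 54 to 57 Mb, 17.1 at 57 to 77 Mb and 35.7 at 77 to 116 Mb. On chromosome 8 it was 29.5, 24.9, 30.4, 22.7 and 31.9 from the first segment to the last. On chromosome 21 it was 59.9, 36.1, 33.2 and 31.1. The segments of lowest dosage on chromosomes 8 and 13 were thus also those of low parental depth, whereas the lowest of chromosome 21, at 16 to 19 Mb, had a depth of 36.1. Neutral bins of other autosomes, those with a dosage within 0.05 of 1 in line 1, had a parental depth of 29.02 with an SD of 10.6 over 1411 bins, so the low segments of chromosome 13 lay near 1 SD below that mean.

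Dividing each library's depth on its own gave the same edges in all 3 libraries. They lay at 15, 30, 54 and 70 Mb of chromosome 8, at 44, 77 and 91 Mb of chromosome 13 and at 16 Mb of chromosome 21. Of the 11 dosage edges, 6 had a parental depth edge within 2 Mb. These were the edges at 31, 55 and 70 Mb of chromosome 8, at 44 and 77 Mb of chromosome 13 and at 16 Mb of chromosome 21. Parental depth is the denominator of dosage, so the profiles are not independent.

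The reads lost per CpG follow from depth and dosage and are given as a description. On chromosome 13 the fall from parental to line 1 was 5.25, 5.41, 4.65 and 4.73 reads per CpG in the 4 lowered segments, whose parental depth ran from 17.1 to 35.7. On chromosome 8 it was 4.30, 5.10, 4.19, 4.58 and 4.70. On chromosome 21 it was larger and less even, at 10.7, 6.69 and 9.38 in the 3 lowered segments. Single bins of the lowered segments of chromosomes 8 and 13 had an SD of 0.960 to 2.55 reads. In line 2 the falls were 2.71 to 3.49 on chromosome 8, 1.99 to 2.78 on chromosome 13 and 4.32 to 6.79 on chromosome 21. In neutral bins depth was 29.02 in parental cells, 28.6 in line 1 and 28.8 in line 2.

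**Figure D3:**
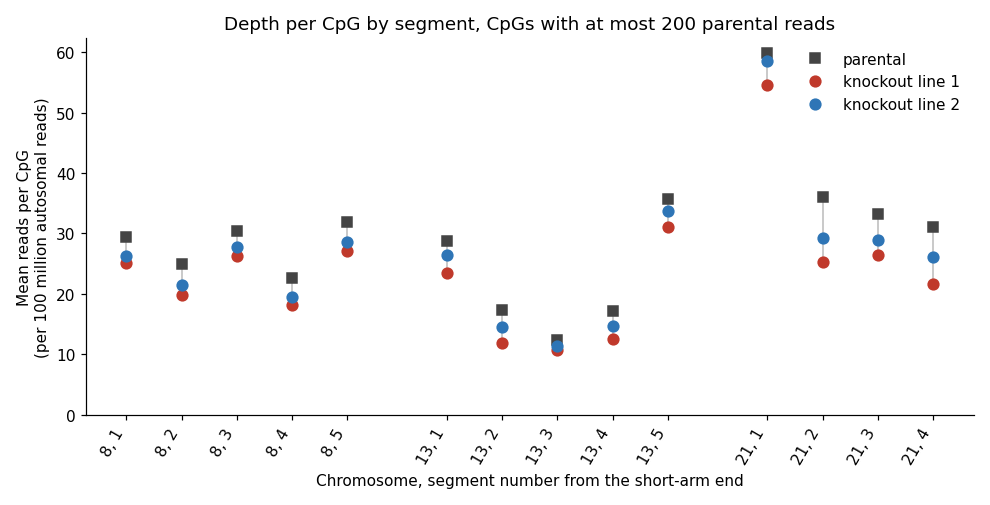
Mean reads per CpG, scaled to 100000000 autosomal reads, in the 14 segments for the parental library (grey squares), line 1 (red) and line 2 (blue); grey bars join parental and line 1. On chromosome 13 the grey bars of the 4 lowered segments are 4.65 to 5.41 reads long while parental depth runs from 17.1 to 35.7, and on chromosome 21 they are 6.69 to 10.7 reads long.

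Methylation was compared at CpGs with 10 or more reads in all 3 libraries, 176836 on the 3 chromosomes (68.5% of their CpGs). These measures were not used in choosing the chromosomes. Inside the lowered segments 173847 CpGs averaged 46.1% in parental cells, 41.4% in line 1 and 43.9% in line 2. The differences were -4.66 points in line 1 and -2.19 points in line 2, a mean of -3.42 ± 1.75 points (SD, n = 2). In neutral bins of other autosomes 1224837 CpGs averaged 42.4% in parental cells, 38.2% in line 1 and 40.2% in line 2, with differences of -4.22 and -2.21 points and a mean of -3.21 ± 1.42. The fall was thus larger inside than in neutral bins in line 1 and slightly smaller in line 2; both regions share the same libraries, and the gap has no replicate error. By chromosome, the lowered segments differed by -4.57 points on chromosome 8, -4.74 on chromosome 13 and -4.80 on chromosome 21 in line 1, and by -2.20, -2.21 and -2.13 points in line 2.

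Classes of parental level were compared in the same way. CpGs under 20% in parental cells, 42.8% of those inside, averaged 2.63% in parental cells, 2.48% in line 1 and 2.88% in line 2. CpGs at 20 to 80% averaged 51.0%, 39.3% and 45.9%, with a fall of 11.7 points in line 1. In neutral bins that class fell by 11.4 points in line 1. CpGs over 80% fell by 5.91 points inside and by 5.97 points in neutral bins in line 1. The rest of the 3 chromosomes, 2989 CpGs of which 2918 lay at 9 to 16 Mb of chromosome 21, differed by -8.11 points in line 1 and -4.27 points in line 2.

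Intermediate methylation was counted at CpGs with 20 or more reads in all 3. On chromosome 21, 20.5% of CpGs inside lowered segments were at 20 to 80% in parental cells, 17.4% in line 1 and 21.7% in line 2. In neutral bins the shares were 19.6%, 18.95% and 20.9%. On chromosome 8 they were 19.6%, 18.8% and 21.3%, and on chromosome 13 they were 23.1%, 22.3% and 24.7%. Line 1 was thus below parental and line 2 above it on each chromosome and in neutral bins, with the widest gap in line 1 on chromosome 21. At the CpGs of 20 to 80% in parental cells, the difference in line 1 had an SD over CpGs of 22.7 points in neutral bins. It was 29.8 (119 CpGs), 27.5 and 26.8 points in the 3 lowered segments of chromosome 21 and 26.9 points at 44 to 54 Mb of chromosome 13. In the other lowered segments of chromosomes 8 and 13 it ran from 21.4 to 24.5 points, around the value of neutral bins. Median depth at 44 to 54 Mb of chromosome 13 was 26 reads in parental cells and 17 in line 1. Median depth inside the lowered segments of chromosome 21 was 36 reads in parental cells and 23 in line 1, against 31 and 29 in neutral bins, and the part of depth in this spread was not tested.

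Single segments differed more than the chromosomes did. The lowest was 19 to 27 Mb of chromosome 21, a stretch poor in CpGs, where 1152 CpGs averaged 61.8% in parental cells, 47.2% in line 1 and 55.2% in line 2. The differences were -14.6 points in line 1 and -6.61 points in line 2. Its bin at 26 Mb held the largest fall of its 8 bins, -31.1 points in line 1 and -13.7 points in line 2. Without that bin the segment differed by -9.56 and -4.45 points, over 882 CpGs. Other autosomal bins with as few CpGs (up to 418, n = 607) had a median difference of -6.19 points in line 1 and ran from -39.1 to 15.3, while the 8 bins of the segment ran from -31.1 to -3.04 with a median of -10.4.

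On chromosome 8 the segment at 0 to 6 Mb had the largest fall, with 52.3% in parental cells, 44.8% in line 1 and 48.1% in line 2 (differences of -7.54 and -4.21 points, 7266 CpGs). The segment at 6 to 31 Mb, among the lowest of the chromosome in dosage, had the smallest, at -3.38 and -1.67 points. The other low segment, at 55 to 70 Mb, had -6.06 and -2.47 points. On chromosome 13 the segments of lowest dosage, at 44 to 54 and 57 to 77 Mb, had -3.95 and -4.21 points in line 1, and those of higher dosage, at 19 to 44 and 77 to 116 Mb, had -4.66 and -4.95 points. The lowered segments of lowest dosage were thus not those of largest fall in methylation on either chromosome.

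**Figure D4:**
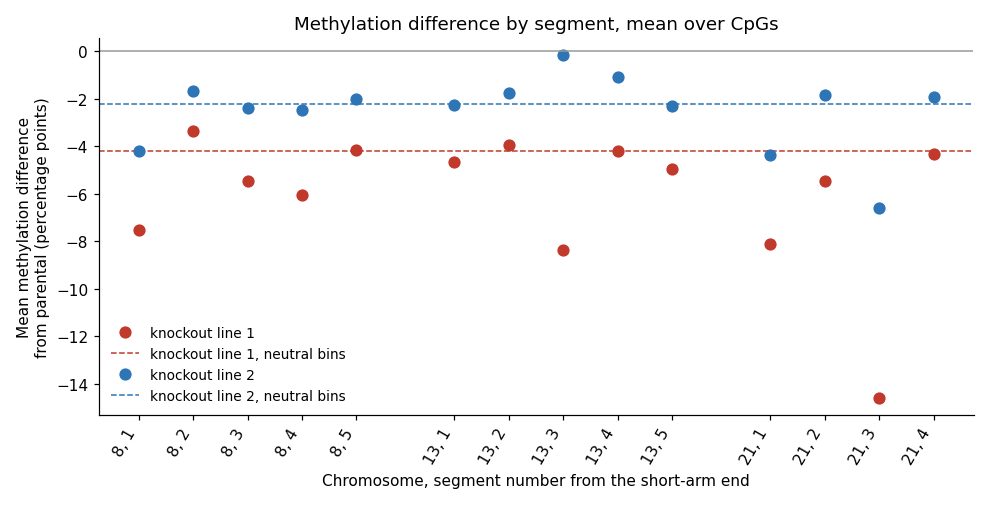
Mean methylation difference from parental (percentage points, over CpGs with 10 or more reads in all 3) in the 14 segments for line 1 (red) and line 2 (blue); dashed lines are the same means in neutral bins of other autosomes (-4.22 and -2.21 points). The third segment of chromosome 21 lies farthest below its lines (-14.6 and -6.61 points), and the third of chromosome 13 rests on 71 CpGs.

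Across bins with 50 or more CpGs compared, dosage and methylation difference in line 1 had a Pearson r of -0.36 on chromosome 8 (n = 142 bins), -0.29 on chromosome 13 (n = 80) and -0.34 on chromosome 21 (n = 38). In neutral bins, where dosage hardly varied, r was -0.24 (n = 1391). In line 2 the values were -0.28, -0.22 and -0.34 on the 3 chromosomes and -0.07 in neutral bins. The bins share their libraries and differ in CpG density, so these values are descriptive. A negative r here means that bins with less dosage had the smaller fall in methylation.

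Counts of methylated and unmethylated reads at single CpGs were compared by Fisher's exact test (2-sided). P-values were adjusted by the Benjamini-Hochberg method over 2238764 CpGs of all chromosomes, and calls needed a value under 0.05 and a change of 25 points or more. The test compares libraries, not conditions. In line 1, 8823 CpGs inside lowered segments were lower than parental (5.08%, against 4.46% of all CpGs) and 1121 were higher (0.645%, against 0.599%). In line 2, 1156 were lower (0.665%, against 0.713%) and 112 were higher (0.0644%, against 0.0831%). In both lines, 948 were lower (0.545%, against 0.6%) and 61 higher (0.0351%, against 0.0581%). Line 1 was lower than line 2 at 2605 CpGs (1.498%, against 1.07%) and higher at 371 (0.213%, against 0.184%). The shares inside were near those over all CpGs in most of these counts.

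The highest share of lower CpGs was at 19 to 27 Mb of chromosome 21. There 18.2% of CpGs were called lower in line 1 and 4.86% in line 2, and 4.69% were lower in both. With every CpG thinned to its smallest depth of the 3 libraries these shares were 15.4%, 2.43% and 2.43%, against 3.50%, 0.325% and 0.287% of all CpGs. At 27 to 49 Mb, 1.27% were called higher in line 1, or 0.814% after thinning, against 0.430% of all CpGs after thinning. In line 2 the share called higher there was 0.0566%. At 0 to 6 Mb of chromosome 8, 8.09% were lower in line 1 and 1.27% in line 2, against 4.46% and 0.713% of all CpGs, and 6.23% and 0.495% were so after thinning. The segment at 9 to 16 Mb of chromosome 21, which was not lowered, had 8.98% lower in line 1 and 1.54% in line 2, or 7.40% and 0.583% after thinning. Median reads per compared CpG in that segment were above those over all CpGs in each of the 3 libraries. Thinning evens depth between libraries at a CpG, not between segments. The part of depth in the shares of that segment was not tested.

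In windows of 1 kb with 5 or more CpGs compared, a difference of at least 25 points was counted, with no test. Of 8846 windows inside lowered segments, 404 were lower in line 1 (4.57%, against 4.14% of 113178 windows over all chromosomes) and 33 were higher (0.373%, against 0.416%). In line 2, 42 were lower (0.475%, against 0.629%) and 0 higher (against 0.0892%). In both lines, 38 were lower (0.430%, against 0.551%) and 0 higher (against 0.0672%). At 19 to 27 Mb of chromosome 21, 8 of 48 windows were lower in line 1 and 3 in both lines.

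The named windows were those with the largest rise or fall, ranked by the smaller of the 2 lines' differences, so both lines moved the same way in them by choice. Distances to placed starts are taken from the middle of a window. On chromosome 8 the largest fall was at chr8:101998001-101999000, where 5 CpGs averaged 73.8% ± 13.1 in parental cells, 2.54% ± 4.33 in line 1 and 37.9% ± 16.7 in line 2 (SD over CpGs). All 5 CpGs were called lower in line 1 and 1 in line 2. At chr8:139948001-139949000, 5 CpGs went from 54.1% in parental cells to 18.2% in line 1 and 20.7% in line 2. At chr8:95652001-95653000, 15 CpGs went from 59.8% to 3.95% and 27.2%, and 12 of them were called lower in line 1. In 2 of these 3 windows line 1 was close to unmethylated while line 2 kept an intermediate level.

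The largest rise on chromosome 8 was at chr8:134574001-134575000, from 48.4% in parental cells to 83.2% in line 1 and 66.5% in line 2 (7 CpGs, all higher in both lines). At chr8:102449001-102450000, 14 CpGs averaged 34.7%, 55.4% and 52.8%. At chr8:134517001-134518000, 5 CpGs averaged 22.4%, 80.1% and 40.2%. Genes of chromosome 8 were not placed here, so no gene is given for these windows, and the promoters of the 16 genes listed for chromosome 8 were not analysed.

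On chromosome 13 the windows of largest fall all lay at 19 to 44 Mb. At chr13:26262001-26263000, between the placed starts of NUP58 and RNF6, 5 CpGs averaged 88.7% in parental cells, 41.4% in line 1 and 46.1% in line 2. RefSeq lists ATP8A2, a phospholipid flippase, and SHISA2 between these genes. At chr13:42074001-42075000, between MTRF1 and VWA8-AS1, 5 CpGs averaged 88.5% ± 4.43, 11.3% ± 14.8 and 48.3% ± 15.4, and all 5 were called lower in line 1. At chr13:23310001-23311000, 8 CpGs averaged 77.9%, 34.9% and 40.3%.

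The largest rise on chromosome 13 was at chr13:42548001-42549000, 13.3 kb from a placed start of VWA8 and 65.7 kb from that of DGKH, a diacylglycerol kinase. Its 5 CpGs averaged 30.7% in parental cells, 72.9% in line 1 and 53.2% in line 2. At chr13:111565001-111566000, 1.9 kb from a placed start of ANKRD10, 7 CpGs averaged 12.4%, 48.6% and 32.8%. At chr13:113677001-113678000, between a pair of placed starts of MCF2L, a guanine nucleotide exchange factor, 22 CpGs averaged 34.5%, 68.0% and 54.5%. In each of these windows line 2 was again between the other libraries.

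On chromosome 21 the largest fall was at chr21:46425001-46426000, 10.4 kb from a placed start of LINC00165, where 5 CpGs averaged 86.1% in parental cells, 33.2% in line 1 and 50.1% in line 2. At chr21:15854001-15855000, between HSPA13 and SAMSN1, 6 CpGs averaged 81.8%, 24.0% and 48.4%. At chr21:26735001-26736000, 199 kb from the placed start of MIR155HG, the host gene of a miRNA of immune cells, 6 CpGs averaged 81.5% ± 11.3, 4.33% ± 4.59 and 49.8% ± 9.79. All 6 were called lower in line 1 and 3 in line 2. That window lies in the bin at 26 Mb, which had the largest fall of the segment at 19 to 27 Mb.

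A pair of the windows of largest rise on chromosome 21 lay 5 kb apart, between the placed starts of CLDN14, a claudin of tight junctions, and HLCS, which attaches biotin to carboxylases. SIM2, a bHLH-PAS factor of development, is the only protein-coding gene that RefSeq lists between them. At chr21:38080001-38081000, 20 CpGs averaged 34.6% ± 25.8 in parental cells, 66.7% ± 35.3 in line 1 and 55.0% ± 35.2 in line 2, and 19 of the 20 were higher in each line. At chr21:38085001-38086000, 7 CpGs averaged 33.0%, 87.6% and 52.5%. The third window, chr21:40759001-40760000, contained a placed start of GET1, a receptor for tail-anchored proteins, and its 7 CpGs averaged 57.0%, 96.3% and 74.0%. None of its CpGs was called in either line, at a median depth of 23, 12 and 21 reads.

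**Figure D5:**
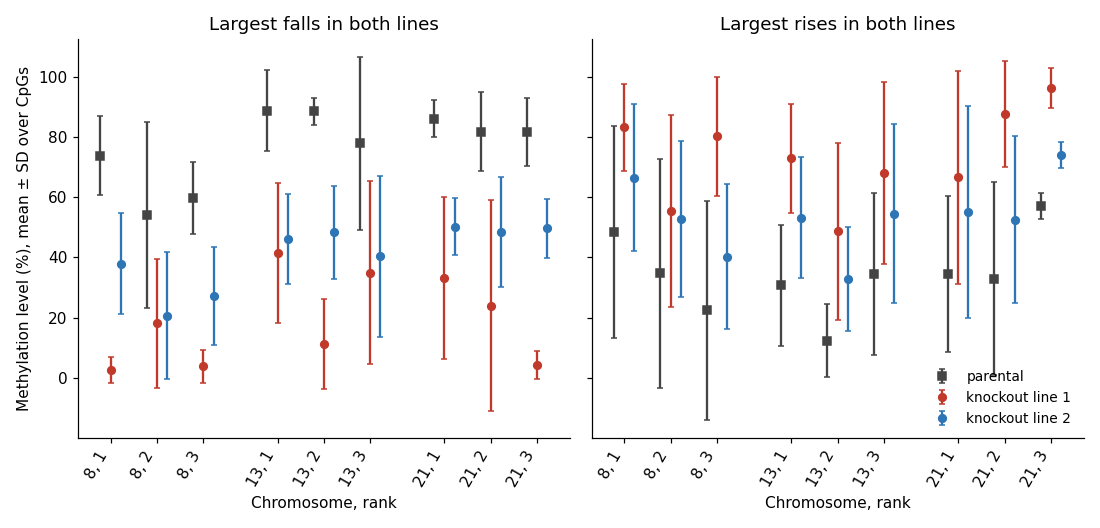
Methylation level (%) of the 3 windows of largest fall and of largest rise on each chromosome in the parental library (grey squares), line 1 (red) and line 2 (blue); points are means and bars the SD over the CpGs of a window (5 to 22 CpGs), which can pass 0 or 100%. Line 2 lies between the parental library and line 1 in each of the 18 windows.

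Promoters, taken as the 250 bases before and 50 bases after a RefSeq start, were placed on chromosomes 13 and 21 by the spacing of their CpGs. Of 892 starts tried on chromosome 13 and 488 on chromosome 21, 333 and 166 were kept, and 420 of these, of 356 genes, had 5 or more CpGs compared. Most were unmethylated, with 298 starts under 20% in parental cells, 87 at 20 to 80% and 35 over 80%. The median difference from parental was -0.0550 points in line 1 and -0.0704 points in line 2, and 300 starts were within 5 points of parental in both lines. In line 1, 8 starts were lower by 25 points or more and 0 were higher by as much; in line 2 there were 0 in either direction. These starts were chosen by whether they could be placed and stand for no wider set.

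The largest falls over whole promoters on chromosome 13 were those of DCLK1 and SLITRK5. DCLK1 averaged 68.7% ± 23.3 in parental cells, 35.7% ± 15.2 in line 1 and 46.1% ± 11.05 in line 2 (SD over 14 CpGs). SLITRK5 averaged 47.6% ± 13.8, 4.69% ± 7.99 and 25.6% ± 10.04 (11 CpGs), while another start of it with 18 CpGs was at 0.105%, 0% and 0.165%. The largest rise was at overlapping placed starts of MAB21L1 and NBEA, genes of neural development, on opposite strands. Over the MAB21L1 start 11 CpGs averaged 28.1% ± 8.86, 43.9% ± 9.57 and 41.8% ± 8.25. No further start of NBEA was placed, and whether the placed one is its main start was not examined.

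On chromosome 21 SAMSN1 had the largest fall, with 84.6% ± 11.6 in parental cells, 35.7% ± 29.1 in line 1 and 63.8% ± 12.9 in line 2 (8 CpGs, all lower in both lines). Its start, at 15.96 Mb, lay in the segment at 9 to 16 Mb, which was not lowered as a whole. In 100 kb bins, however, the start lay past the division of line 1 at 15500000, after which dosage was 0.718. It lay before that of line 2 at 16200000, so its side of the edge is not settled. CBR1 averaged 48.7% ± 12.2, 20.8% ± 14.9 and 32.1% ± 12.8 over 15 CpGs. At one start of RCAN1, 6 CpGs averaged 10.4% ± 13.02, 34.0% ± 30.4 and 25.4% ± 18.4, and at another 24 CpGs averaged 0.119%, 0.758% and 6.27%. KCNE1, a potassium channel subunit, averaged 59.6%, 77.8% and 67.8% over 11 CpGs of one start. Both lie in the segment at 27 to 49 Mb, as does CBR1.

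Of the 48 genes listed for chromosomes 13 and 21, 21 had a start with 5 or more CpGs compared, 32 starts in all, and 22 of these starts were under 20% in parental cells. The median difference over the 32 was -0.0307 points in line 1 and -0.0891 points in line 2. Among liver and one-carbon genes, 4 of 6 were compared, all under 20%. F7 and F10, coagulation factors made by the liver, averaged 1.06% and 2.01% in parental cells, 0.997% and 0.746% in line 1, and 0.944% and 0.681% in line 2. SLC19A1, the reduced folate carrier, averaged 0.618%, 1.13% and 0.375% over 30 CpGs. GART, an enzyme of purine synthesis, averaged 0.198% in parental cells, 7.18% in line 1 and 7.07% in line 2, and each of its 23 CpGs was higher in both lines. GART was the list member with the largest rise. This start overlaps a placed start of SON on the opposite strand, so the rise cannot be given to GART alone. Levels at the other placed starts of GART are not given here.

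Among 13 developmental transcription factors listed for these chromosomes 6 were compared, with 3 of 8 starts under 20%. CDX2 had the largest fall, from 25.8% ± 21.8 in parental cells to 3.37% ± 3.92 in line 1 and 14.9% ± 12.7 in line 2 (10 CpGs). ZIC5, a zinc finger factor, had 3 starts, which averaged 36.1%, 24.9% and 29.97% in parental cells and 24.6%, 18.8% and 35.6% in line 1, so they did not move one way. POU4F1, ZIC2 and RUNX1 were under 1% in each library. Of 7 growth control genes 3 were compared (BRCA2, ING1 and KLF5, 6 starts), and their starts differed by -0.207 to 0.993 points in line 1. Of 3 interferon and cytokine receptors 2 were compared (IFNAR1 and IL10RB, 3 starts), with differences of 0 to 0.219 points in line 1. The compared starts of these growth control and receptor genes lay in lowered segments, were under 20% in parental cells and differed by under 1 point in line 1.

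Outside these groups, SLITRK1, another transmembrane protein of neurons, averaged 26.5% in parental cells, 6.30% in line 1 and 10.3% in line 2 at one start. EDNRB, the endothelin B receptor, had one start at 92.9%, 95.9% and 92.6% and another at 81.8%, 66.6% and 69.9%. Starts of one gene could thus differ in whether they moved.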

How the data were processed

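DNA of 3 libraries was enriched with the TruSeq Methyl Capture EPIC probe set, treated with bisulfite and sequenced on a NovaSeq instrument. For each CpG cytosine the authors deposited whole-number read counts (total, context and methylated coverage) and the methylation level as a fraction, which equalled methylated over context counts. Per the labels the build is GRCh37 (hg19). Aligner, caller, filters and duplicate removal are not given in the sources used here; no molecular identifiers are stated, so depth gives counting precision only.

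Strands were summed per CpG (position of the forward C). Dosage was computed in 1 Mb bins with 50 or more CpGs. Log2 dosage was divided by penalised least squares (at least 3 bins a segment) in Python with numpy and numba. The division was tested on simulated bins, where 40 of 40 edges of segments at a dosage of 0.7 were found within 1 bin, with 0 extra. Smaller steps were not simulated. The Fisher test with Benjamini-Hochberg adjustment was tested on simulated reads of line 1 and parental cells. Of 200 CpGs lowered by 50 points, 68 were called, and 0 other CpGs were, so many changes of that size are missed. At 1 library a group, p-values measure reads of 2 libraries.

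Members, gene lists and alternatives were chosen with earlier results of these data known. Named windows were the 3 largest rises and falls per chromosome by the smaller of both lines' differences. An annotation of GRCh37 was not used here. After the files were seen, RefSeq promoters (GRCh38.p14) of chromosomes 13 and 21 with 6 or more CpGs were placed where at least 60% of their CpG spacing matched at a unique place, and kept if in RefSeq order; of these, the 3 largest falls and rises per chromosome and the listed genes are described. Alternatives changed scaling, strands, bin size, penalty, thresholds, read minimum and depth.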

Additional observations from a re-analysis of the deposited data

How the results depend on the processing

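No paired analysis was possible because only 1 parental library is used here. Of 166 alternative values over 17 results, 135 stayed close to the value reported, 31 moved and 0 changed sign. The cause was not tested. Counts and lengths cannot change sign. A mean dosage was called close within the SD over both lines, which leaving out 1 line cannot exceed. Counting bins with any CpG leaves the dosage of a chromosome the same. The close values thus include some that could not move. They also include a mean difference outside of -3.64 points at a limit of 0.85, against -6.19. Reads of the forward strand alone gave chromosome 8 a mean dosage of 0.907. Edges numbered 1 on chromosome 8 and 1 on chromosome 21 with a penalty multiplier of 4 in place of 2, and 8 on chromosome 8 and 8 on chromosome 13 with 1. With a limit of 0.85, 40 Mb of chromosome 8 and 55 Mb of chromosome 13 counted as lowered. With segments set by line 2, 85 Mb of chromosome 8 and 39 Mb of chromosome 13 did, with 1 edge on chromosome 8, 2 on chromosome 13 and 1 on chromosome 21.

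CpGs lower in both lines inside numbered 393 after thinning, 415 at the limit of 0.85 and 105 at 50 points; those higher numbered 14, 20 and 5. Windows lower in both lines numbered 14 at 20 reads, 16 at the limit of 0.85, 734 at 10 points, 0 at 50 points and 6 with 10 CpGs per window. Windows higher in both lines numbered 2 at 5 reads, 65 at 10 points and 1 with pooled reads. With 1 line left out, counts ran from 1156 to 8823 for lower CpGs, 112 to 1121 for higher CpGs, 42 to 404 for lower windows and 0 to 33 for higher windows, the larger being line 1 in each. Depth limits the calls: median reads per compared CpG inside were 34 in parental cells, 25 in line 1 and 37 in line 2.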
